A study of Homo sapiens with 36 samples.

Results

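The genes described here are 9 genes of epithelial cell-cell junctions: CDH1, EPCAM, the claudins CLDN1, CLDN2, CLDN3, CLDN4 and CLDN7, OCLN and TJP1. They were taken by name from the count matrix, where all 9 have a row among 20802 genes. LoVo is an established cell line from a human colorectal cancer. Its RNA was counted after 24 hours under an inhibitor of the kinase MEK, at 10 concentrations between 0.03 and 1000 nM, or under the solvent DMSO alone, and the series asks how each dose differs from DMSO. The labels describe the inhibitor only as a numbered compound of a cited medicinal chemistry paper, and all groups are the same line in the same medium with serum, with no genetic change named. Each dose had 3 libraries. DMSO had 6, of which 3 were read on each of a pair of sequencing chips, while the chip of treated libraries is not labelled. A library is the amplified RNA of a whole culture, so a change in RNA per cell and a change in the mix of cells cannot be told apart.

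Epithelial cells are held together by belts of adhesion proteins. E-cadherin, the product of CDH1, binds neighbouring cells in the adherens junction and is anchored to actin through catenins. Claudins form the strands of the tight junction and set which ions and solutes pass between cells, occludin (OCLN) runs along the same strands, and ZO-1 (TJP1) is the scaffold beneath them. EPCAM is an adhesion protein of the epithelial surface that binds claudin-7, the product of CLDN7, and protects it from degradation. MEK activates ERK, and strong ERK signalling is known to loosen junctions in many epithelial cells, in part through repressors of the Snail and ZEB families that bind E-box sequences in promoters.

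CLDN3, CLDN4 and CLDN7 carry the contrast described below, so promoter sequence upstream of these genes is shown. RefSeq promoter windows of GRCh38.p14 were matched for 7 of the 9 genes, with 13 transcription starts, and not for CDH1 and EPCAM. The 250 bases before the start of CLDN3 (chr7:73770271-73770520, minus strand) and before the first start of CLDN7 (chr17:7263214-7263463, minus strand) are printed 5′ to 3′ in lower case.
CLDN3: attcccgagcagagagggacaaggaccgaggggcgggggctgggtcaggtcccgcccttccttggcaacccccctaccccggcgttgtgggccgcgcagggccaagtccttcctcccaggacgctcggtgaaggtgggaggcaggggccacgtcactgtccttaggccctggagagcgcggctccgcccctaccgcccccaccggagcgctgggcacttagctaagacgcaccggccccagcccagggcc
CLDN7: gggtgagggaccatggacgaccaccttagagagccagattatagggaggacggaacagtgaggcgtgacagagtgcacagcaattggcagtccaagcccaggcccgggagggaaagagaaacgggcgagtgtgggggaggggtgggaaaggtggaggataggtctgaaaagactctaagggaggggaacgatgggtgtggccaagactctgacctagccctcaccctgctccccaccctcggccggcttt

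A pair of motifs was searched on both strands: the E-box CACCTG, which Snail and ZEB proteins bind, and TGANTCA, a loose pattern for sites of AP-1. AP-1 is a transcription factor fed by ERK, and N stands for any base. No match of either motif overlapped a match of the other. Among all 35116 windows of this length in the table, 17.5% held the E-box and 6.57% the AP-1 letters. The CLDN3 window and the first CLDN7 window held neither. CLDN4 held the AP-1 letters at 2 places, which start 242 and 161 bases before its start, and each is shown with its surroundings (chr7:73830746-73830775 and chr7:73830824-73830853, plus strand), with the match in capitals.
CLDN4, far site: ctgggctgTGATTCAgtgtctgtctcccgg
CLDN4, near site: agactggatagTGACTCAgggacccggggc
E-box letters were found before 1 of 2 CLDN7 starts, both OCLN starts and 1 of 4 TJP1 starts. The second CLDN7 window held 4 matches, which begin 174, 135, 20 and 9 bases before that start, and each OCLN and TJP1 window with a match held 1. Shown with the E-box in capitals are the nearest pair of CLDN7 (chr17:7262479-7262508, minus strand) and the matches before the first starts of OCLN and TJP1 (chr5:69492503-69492532, plus strand, and chr15:29969119-29969148, minus strand).
CLDN7, second start: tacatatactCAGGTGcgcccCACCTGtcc
OCLN: catccgagtttCAGGTGaattggtcaccga
TJP1: cggccggcgcgCAGGTGgcccggcctcgcc
In CLDN2, 1 of 2 windows held the AP-1 letters. A match is only a description of the sequence, and binding was not measured. CLDN3 and CLDN4 are neighbouring coding genes on chromosome 7.

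Total counts per library lay between 2972186 and 4751839. Values are counts scaled to a common library size by TMM (CPM), which compare libraries for 1 gene and not different genes, because each amplicon amplifies with its own efficiency. A gene was called when edgeR's quasi-likelihood test gave the same sign against the DMSO libraries of each chip and the larger of both p-values, adjusted over all tested genes, was under 0.05; log2 fold changes are against the mean of both. The labels call the replicates biological but not whether cultures were separate, so p-values measure the spread between these libraries, which may be technical. DUSP6, an ERK target that checks the treatment, had a mean of 64.2 ± 3.27 CPM in DMSO (SD over 3 pairs of same-numbered libraries, as for all DMSO means below) and 1.89 ± 0.468 CPM at 1000 nM (SD, n = 3). Replicate 1 at 1 nM, replicate 1 at 1000 nM and replicate 2 at 0.1 nM stood apart from the other libraries of their groups, and results that rest on them are also given without them. The SD of their log2 deviations from the other libraries of the group, over 5441 genes, was 0.394, 0.345 and 0.294. Replicate 3 at 1000 nM, at 0.303, deviated as much by this measure. It is not counted among the libraries that stood apart and was left out only on its own. Of the 9 genes, 8 were tested. CLDN2, the claudin of leaky epithelia, had 9 counts in all 36 libraries, of which 4 lay in DMSO and 0 in the 15 libraries from 10 to 1000 nM, so its change was not detectable at this depth.

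At the highest doses, 5 junction genes were higher than in DMSO and 1 was lower. CDH1, CLDN3, CLDN4, OCLN and TJP1 rose at 30, 100, 300 and 1000 nM, CLDN7 fell at the same doses, and EPCAM and CLDN1 did not pass there. At 1000 nM 41.8% of all 12102 tested genes were called, 21.2% higher and 20.7% lower. The median log2 fold change of the 8 tested junction genes was 0.47 at that dose, beside 0.01 for all tested genes. Without the 3 libraries that stood apart, 6 of the junction genes were also called at 1000 nM.

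**Figure D1:**
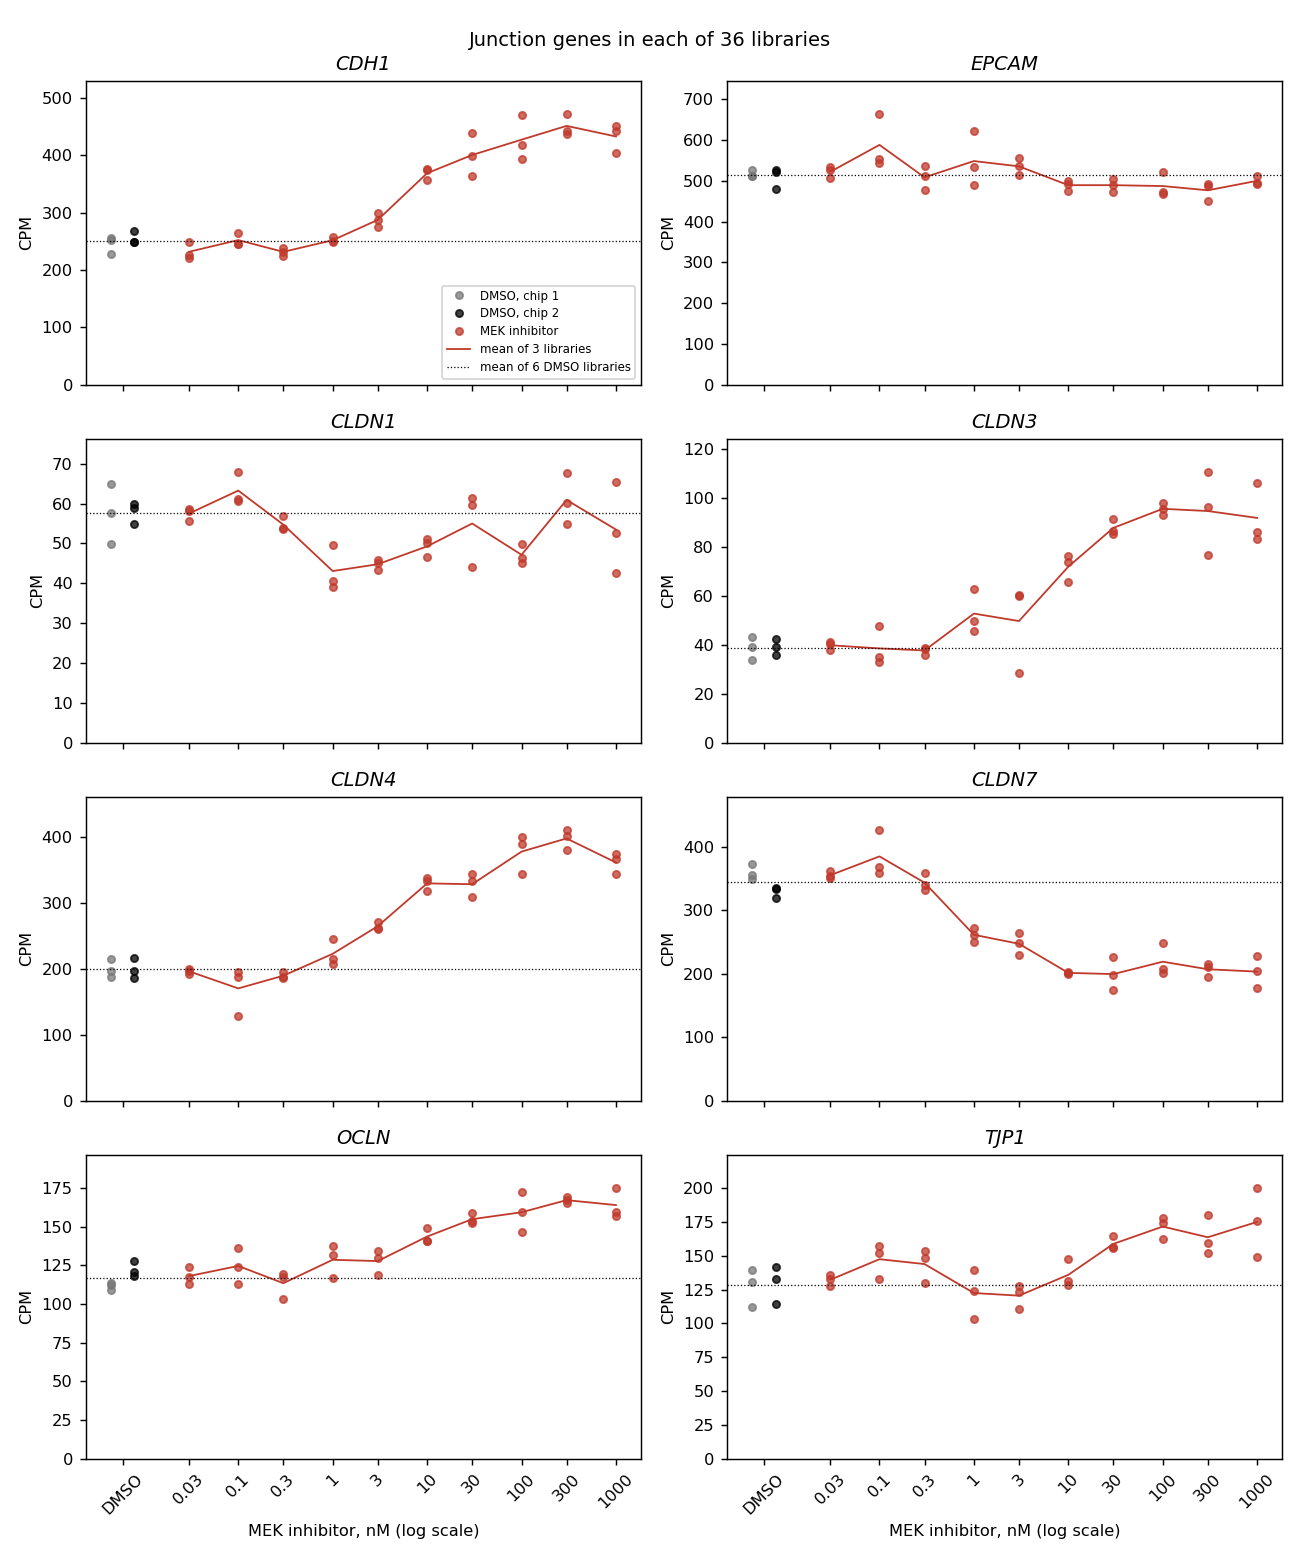
Scaled counts (CPM, vertical axes from 0) of the 8 tested junction genes in each of 36 libraries against the dose in nM (log scale), with DMSO libraries of chip 1 in grey and chip 2 in black; the line joins means of 3 libraries and the dotted line is the mean of the 6 DMSO libraries. All 3 libraries at each dose from 10 nM lie above all DMSO libraries for CDH1, CLDN3, CLDN4 and OCLN, and below them for CLDN7.

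CDH1, the adherens junction cadherin, ranged from 227.6 to 267 CPM in the 6 DMSO libraries, with a median of 250.1. Up to 1 nM the treated libraries stayed between 221 and 264 CPM. At 3 nM the 3 libraries held 275, 299 and 288 CPM, at 10 nM 375, 373 and 357 CPM, and at 1000 nM 451, 443 and 404 CPM. Every library from 3 nM upwards was above every DMSO library. DMSO had a mean of 249.8 ± 2.24 CPM and 1000 nM one of 432.6 ± 25.5 CPM (SD, n = 3 each), a log2 fold change of 0.79 (SE 0.086; edgeR's quasi-likelihood test, adjusted p = 2.06e-10). At 3 nM the change of 0.20 (SE 0.086) was not called (adjusted p = 0.205 by the same test). It was called in 2 of 21 alternatives: against the mean of both DMSO groups (adjusted p = 0.0358) and with only the libraries compared (0.0411). The former counts all 6 DMSO libraries as separate, though same-numbered ones shared deviations. With DMSO summed over chips the change was not called.

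EPCAM was the member whose level moved least at the highest dose. It ranged from 479.8 to 527.5 CPM in DMSO with a median of 517.1, and the libraries at 1000 nM held 492, 496 and 512 CPM, inside that range. The change at 1000 nM was -0.04 on the log2 scale, with a 95% interval from -0.21 to 0.14 (edgeR's quasi-likelihood test, adjusted p = 0.872). No dose was called, and fold changes ran from -0.11 at 300 nM to 0.20 at 0.1 nM. The highest level, 665 CPM, was in replicate 2 at 0.1 nM, which is 1 of the libraries that stood apart, and the next, 622 CPM, was in replicate 1 at 1 nM, another of them.

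Among the claudins, CLDN3 and CLDN4, which seal against ions, rose, and CLDN3 had the largest fold change of the 8 tested members. CLDN3 ranged from 33.8 to 43.1 CPM in DMSO, with a median of 39.0. At 10 nM its libraries held 74.0, 76.5 and 65.6 CPM, and at 1000 nM 106, 86.0 and 83.5 CPM, all above DMSO. Its log2 fold change was 0.89 (SE 0.181) at 10 nM, 1.30 (SE 0.176) at 100 nM and 1.24 (SE 0.177) at 1000 nM (adjusted p = 4.59e-07 at 1000 nM by edgeR's quasi-likelihood test). At 1 and 3 nM the change of CLDN3 was not called, and at 3 nM this rested on 1 library. At 3 nM replicates 1 and 3 held 60.6 and 60.1 CPM and replicate 2 held 28.6 CPM (130 counts), below all DMSO libraries; the change of 0.36 (adjusted p = 0.243) was not called, and without replicate 2 it was 0.63 (adjusted p = 0.00251). At 1 nM all 3 libraries, at 62.7, 45.8 and 49.9 CPM, were above DMSO, with a change of 0.43 (SE 0.184) that was not called, though it was without a filter (adjusted p = 0.0459) and against the mean of both DMSO groups (0.0454).

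CLDN4 ranged from 186 to 217 CPM in DMSO, with a median of 196.7. It was the only junction gene called higher at 3 nM, where its libraries held 262, 271 and 260.2 CPM, all above DMSO, with a log2 fold change of 0.40 (SE 0.100; edgeR's quasi-likelihood test). The level at 300 nM was 411, 402 and 380 CPM, and at 1000 nM 343, 374 and 366 CPM. These are changes of 0.99 (SE 0.100) and 0.85 (SE 0.100), the latter with an adjusted p of 8.57e-10. Means were 199.7 ± 7.16 CPM in DMSO and 360.9 ± 15.8 CPM at 1000 nM (SD, n = 3 each). In replicate 2 at 0.1 nM, a library that stood apart, CLDN4 was at 128 CPM while the other libraries of that dose held 195 and 188 CPM.

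CLDN7 moved in the opposite direction to CLDN3 and CLDN4. Its DMSO libraries ranged from 319 to 373 CPM, with a median of 342, and the 3 of chip 1 (350, 355 and 373 CPM) were all above the 3 of chip 2 (319, 334 and 335 CPM). Already at 1 nM all 3 libraries, at 251, 261 and 272 CPM, lay below every DMSO library. At 10 nM they held 202, 202 and 199.8 CPM, and at 1000 nM 178, 205 and 228 CPM. The log2 fold change was -0.40 (SE 0.094) at 1 nM, -0.48 (SE 0.094) at 3 nM, -0.77 (SE 0.096) at 10 nM and -0.76 (SE 0.095) at 1000 nM (adjusted p = 3.79e-08 at 1000 nM by edgeR's quasi-likelihood test). The call at 1 nM was lost without replicate 1 of that dose (adjusted p = 0.0531), which stood apart, and without replicate 1 (0.0562) or 3 (0.0532) of DMSO chip 2. At every dose from 3 nM it held in all 21 alternatives.

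CLDN1, a claudin of many epithelia that is often raised in colorectal tumours, dipped at middle doses. It ranged from 49.8 to 64.9 CPM in DMSO, with a median of 58.3. At 1 nM its libraries held 39.0, 40.6 and 49.6 CPM and at 3 nM 45.8, 43.3 and 45.2 CPM, below every DMSO library at both doses. The log2 fold changes were -0.42 (SE 0.132) and -0.37 (SE 0.129), both called. From 10 nM upwards no dose was called: 10 nM held 46.6, 51.1 and 50.1 CPM, 100 nM 49.9, 45.1 and 46.4 CPM, 300 nM 60.2, 54.9 and 67.7 CPM, and 1000 nM 65.3, 52.7 and 42.5 CPM. The libraries at 300 and 1000 nM overlapped those of DMSO, with changes of 0.08 (95% interval -0.18 to 0.34) and -0.12 (-0.38 to 0.14). The difference between 3 nM and the highest doses was not tested.

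The calls of CLDN1 depended on the libraries used. In 21 alternatives, the call at 1 nM was kept in 13 and the call at 3 nM in 8. At 1 nM it was lost without replicate 1 (edgeR's quasi-likelihood test, adjusted p = 0.121) or 2 (0.137) of that dose, replicate 1 (0.208) or 2 (0.0811) of DMSO chip 1, replicate 1 (0.0883) or 2 (0.104) of DMSO chip 2, without the 3 libraries that stood apart (0.0666) and with only the libraries compared (0.0548). At 3 nM it was lost without any 1 of the 3 libraries of that dose (adjusted p = 0.0780, 0.134 and 0.0972), replicates 1 (0.260) or 2 (0.107) of chip 1, or any DMSO library of chip 2 (0.114, 0.135 and 0.0547). It was also lost with DESeq2 (0.0534), with limma voom (0.0522), with no filter (0.0631), with at least 1 CPM in 3 libraries (0.0514) and with the replicate number as a block (0.0537). At 100 nM the change of -0.29 was not called and was called in 5 alternatives.

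OCLN, the occludin gene, ranged from 109 to 128 CPM in DMSO with a median of 115.8, and all 3 libraries of chip 2 were above those of chip 1. At 10 nM its libraries held 141, 149 and 141 CPM, all above DMSO, a log2 fold change of 0.30 (SE 0.092) that was not called (adjusted p = 0.0529 by edgeR's quasi-likelihood test) and was called in 7 of 21 alternatives. At 1000 nM they held 175, 159.7 and 157 CPM, a change of 0.49 (SE 0.092; adjusted p = 0.000155). The calls from 30 to 1000 nM held in all 21 alternatives.

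TJP1, the scaffold gene, had the smallest rise among the 5. DMSO libraries ranged from 112 to 142 CPM, with a median of 132.0. The libraries at 10 nM, at 129, 132 and 148 CPM, overlapped them. Those at 30 nM (157, 156 and 165 CPM), 100 nM (175, 178 and 163 CPM), 300 nM (180.0, 159.7 and 152 CPM) and 1000 nM (149, 201 and 176 CPM) were all higher. The change was 0.30 (SE 0.110) at 30 nM and 0.44 (SE 0.109; edgeR's quasi-likelihood test, adjusted p = 0.00107) at 1000 nM. The calls at 100 and 1000 nM held in 21 of 21 alternatives. The call at 30 nM was lost without any 1 of its own libraries (adjusted p = 0.0599, 0.0585 and 0.0856), without replicate 3 of chip 1 (0.146) or replicates 2 (0.215) or 3 (0.0561) of chip 2, and with no filter (0.0593). The call at 300 nM was lost without its replicate 1 (adjusted p = 0.0897), replicate 3 of chip 1 (0.0602) or replicate 2 of chip 2 (0.103).

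Across doses the calls accumulated in this order. At 0.03, 0.1 and 0.3 nM, 0 of 8 junction genes were called, also with DESeq2 and limma voom. Of all tested genes 0% were called at these doses. An unadjusted p under 0.05, in either direction, was held by 0, 2 and 0 of the junction genes. Of all genes 42, 299 and 330 held one. The 2 junction genes at 0.1 nM were EPCAM, which was higher (0.20), and CLDN4, which was lower (-0.23). At 1 nM 2 genes were called, both lower (CLDN1 and CLDN7), where 7.97% of all genes were called, 3.95% higher and 4.02% lower. At 3 nM 3 were called (13.3% of all genes, 6.66% higher and 6.68% lower), with CLDN4 called higher beside CLDN1 and CLDN7, which were lower. At 10 nM 4 were called, CDH1, CLDN3 and CLDN4 higher and CLDN7 lower, beside 26.8% of all genes (13.5% higher and 13.3% lower). At 30, 100 and 300 nM 6 were called, 5 higher and 1 lower. Of all genes 36% were called at 30 nM (18% in each direction), 37.2% at 100 nM (18.4% higher and 18.8% lower) and 45.1% at 300 nM (22.1% higher and 23% lower). Share for share, calls among the junction genes lay above the background at each dose from 1 nM, but 8 genes chosen with earlier results known are too few to call this particular to them.

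**Figure D2:**
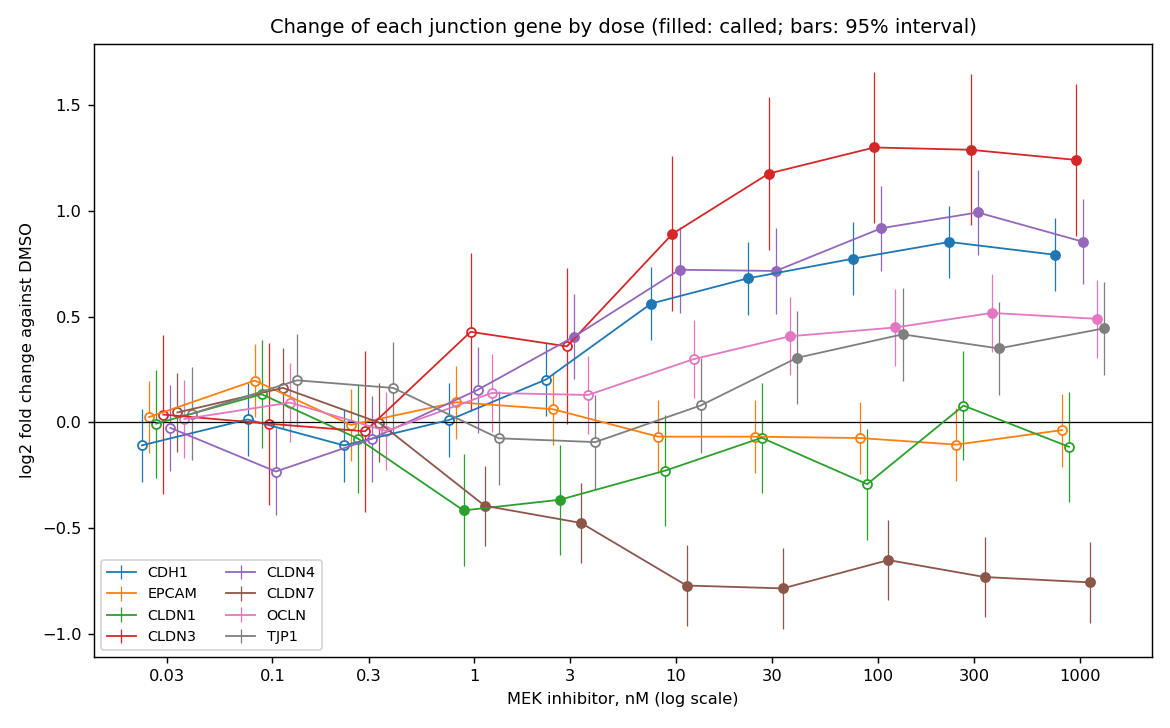
Log2 fold change against DMSO (vertical axis) of the 8 tested junction genes at each dose in nM (log scale), with 95% intervals; filled points were called, and points are shifted sideways for legibility. CLDN3, CLDN4, CDH1, OCLN and TJP1 end above 0 at 1000 nM (1.24, 0.85, 0.79, 0.49 and 0.44), CLDN7 ends at -0.76, and EPCAM and CLDN1 have intervals that hold 0 there.

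Tests between doses 10 times apart show where along the doses the calls arose. They compare the groups directly, without DMSO. As the chip of treated libraries is not labelled, a change by dose and a change by chip cannot be told apart within a step. From 0.1 to 1 nM CLDN1 (-0.55) and CLDN7 (-0.56) fell and CLDN4 rose (0.39), which is 3 of 8 beside 15% of all genes. This call of CLDN4 was lost without replicate 2 at 0.1 nM, where the difference was 0.20 (edgeR's quasi-likelihood test, adjusted p = 0.195), without replicate 1 at 1 nM (0.30, adjusted p = 0.0563), without the 3 libraries that stood apart (0.14, adjusted p = 0.339) and when only the libraries compared were fitted (0.37, adjusted p = 0.181). From 1 to 10 nM CDH1 rose by 0.55, CLDN4 rose by 0.57 and CLDN7 changed by -0.38, again 3 of 8 beside 15.4% of all genes. CLDN3, at 0.46 over the same step, was not called (adjusted p = 0.0613) but was without replicate 1 at 1 nM (adjusted p = 0.0365), without the 3 libraries that stood apart (0.0204) and with no filter (0.00863). TJP1, at -0.27 from 0.1 to 1 nM, was not called (adjusted p = 0.0786) and was without replicate 3 at 0.1 nM (0.0450) or replicate 1 at 1 nM (0.0221).

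Above 10 nM few differences were detected. From 10 to 100 nM 0 of 8 were called, beside 5.14% of all genes, and 3 had an unadjusted p under 0.05 (CDH1 at 0.21, CLDN3 at 0.41 and TJP1 at 0.34); DESeq2 and limma voom also called 0. TJP1 was called in this step without replicate 3 at 10 nM (adjusted p = 0.0440 by edgeR's quasi-likelihood test), without the 3 libraries that stood apart (0.0106) and with only the libraries compared (0.0101). CLDN3 was called with only the libraries compared (adjusted p = 0.00703) and with no filter (0.0337). From 100 to 1000 nM 0 of 8 were called and 0 had an unadjusted p under 0.05, beside 0.00826% of all genes called, with differences between -0.11 (CLDN7) and 0.18 (CLDN1). Between the DMSO chips 0 of 8 junction genes and 0% of all genes were called, and 0 junction genes had an unadjusted p under 0.05. The largest chip differences were those of CLDN7, -0.13, and OCLN, 0.13.

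A curve of log2 CPM on dose, with DMSO as dose 0, was fitted by least squares to the 6 genes called at 1000 nM. It estimates the midpoint dose of the change (EC50). Its form was base plus full change times dose/(dose + EC50), so its steepness was fixed. Each library counted as a separate point, including the same-numbered DMSO libraries. The intervals below depend on these choices, and curves of other steepness were not fitted. CLDN7 had the lowest, 1.22 nM (95% interval 0.678 to 2.20 nM). CLDN4 followed at 3.39 nM (1.97 to 5.83), then CLDN3 at 5.40 nM (2.68 to 10.9), CDH1 at 6.27 nM (4.21 to 9.34) and OCLN at 7.48 nM (3.61 to 15.5). The interval of CLDN7 ended below those of CLDN3, CDH1 and OCLN and overlapped that of CLDN4, and the intervals of the 4 rising genes overlapped one another. Without the 3 libraries that stood apart the intervals of CLDN7 (0.725 to 2.32 nM) and CLDN4 (2.86 to 5.88 nM) did not overlap. Differences between EC50 values were not tested. The fitted full change was -0.84 for CLDN7, 1.01 for CLDN4, 1.32 for CLDN3, 0.90 for CDH1 and 0.49 for OCLN. TJP1 could not be fitted with useful precision.

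**Figure D3:**
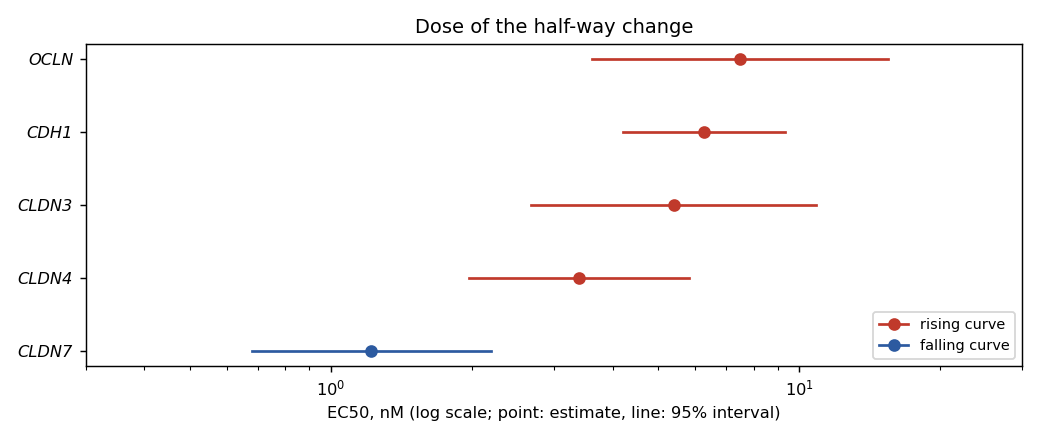
EC50 in nM (log axis) of the 5 junction genes with a well-determined curve, with the estimate as a point and the 95% interval as a line; rising curves are red and the falling curve of CLDN7 is blue. CLDN7 lies lowest at 1.22 nM, and the rising genes lie between 3.39 and 7.48 nM.

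Over the 12 group means of log2 CPM, CDH1, CLDN3, CLDN4 and OCLN followed each other with Pearson's r between 0.94 (CLDN4 with OCLN) and 0.98 (CDH1 with OCLN), given as a description, since the groups share a dose order. CLDN7 ran against them, from -0.90 (with OCLN and with CDH1) to -0.95 (with CLDN4). TJP1 was less close, at 0.64 with CLDN4 to 0.77 with OCLN. By the same measure the genes outside the list most like CDH1 were CALD1 (0.995) and C4orf34 (0.991), and those most like CLDN3 were ODAM (0.990) and GLB1 (0.989). CLDN4 was closest to WBP1 (0.990) and GIPC1 (0.989), and CLDN7 to CAPRIN1 (0.987) and the cell cycle phosphatase CDC25B (0.983). OCLN was closest to the mucin MUC20 (0.989) and DIRC2 (0.988), and TJP1 to ANKRA2 (0.967) and BIRC2 (0.961). EPCAM and CLDN1 had no such close partner, with ARHGAP21 (0.942) and BCAP29 (0.922) for EPCAM, and RCOR1 (0.942) and KRT34 (0.915) for CLDN1. Without the 3 libraries that stood apart the values were 0.871 for BCAP29 and 0.807 for KRT34. All partners named here are the highest 2 of the tested genes outside the list, and r compares shape and not size. At 1000 nM, for example, MUC20 changed by 4.61 and OCLN by 0.49.

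The partners of these proteins were taken from lists by function, and each count of called genes at 1000 nM is read beside the 41.8% of all tested genes called at that dose (21.2% higher and 20.7% lower). Of 17 other tight junction genes tested, 5 rose and 2 fell at 1000 nM, a share near that 41.8%, with a median log2 fold change of 0.27. CXADR, an adhesion receptor of the tight junction, was at 153 ± 15.1 CPM in DMSO and 452.7 ± 37.9 CPM at 1000 nM (SD, n = 3 each), which is a log2 fold change of 1.56 (SE 0.099). CGN, a cytoplasmic partner of ZO-1, changed by 1.29 (SE 0.205) and F11R, the junctional adhesion molecule JAM-A, by 0.83 (SE 0.102). Among those that fell was the claudin CLDN11, by -1.07 (SE 0.214).

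Around CDH1, 5 of 15 adherens junction genes rose and 2 fell, near the 41.8% of all genes, with a median of 0.08. JUP, which encodes plakoglobin and binds E-cadherin, changed by 1.01 (SE 0.101), from 156 ± 9.08 to 315 ± 45.3 CPM. CTNNB1, which encodes beta-catenin, changed by 0.44 (SE 0.081) and the actin regulator LIMA1 by 0.80 (SE 0.120). CDH17, the intestinal cadherin, changed by -0.65 (SE 0.094), so that the cadherins CDH1 and CDH17 moved in opposite directions, and ABLIM1 changed by -0.91 (SE 0.158). In the desmosome, the spot-like junction tied to keratin, 2 of 12 rose and 3 fell, again near 41.8%, with a median of -0.23. There PPL (1.28, SE 0.174) and DSP (0.41, SE 0.089) rose, while PKP2 (-1.74, SE 0.148), EVPL (-1.59, SE 0.136) and DSG4 (-1.17, SE 0.281) fell.

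A further list joins partners of EPCAM with genes of the matriptase axis, so not all of its genes are EPCAM partners. Of its 10 tested genes, 7 rose, 1 fell and 2 did not pass at 1000 nM, where 21.2% of all genes rose and 20.7% fell. The median of the list was 0.71. The tetraspanins TSPAN8 and CD9, which sit with EPCAM and CLDN7 in membrane complexes, changed by 1.53 (SE 0.093) and 1.21 (SE 0.088). TSPAN8 went from 344 ± 6.32 CPM to 997.0 ± 82.9 CPM. ADAM10, a protease of the cell surface, changed by 1.19 (SE 0.102), and FHL2, a protein that binds the released tail of EPCAM, by -0.92 (SE 0.131).

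Polarity complexes, which position the junctions, had 3 of 15 genes higher and 1 lower, beside 41.8% of all genes, with a median of 0.19. The 4 called became 7 with DMSO summed over chips or against the DMSO mean, and 2 with only the libraries compared. How this list stands beside the share of all genes is therefore not settled. INADL, the scaffold PATJ at the tight junction, changed by 1.09 (SE 0.119). PARD6G (0.91, SE 0.252), PARD6B (0.53, SE 0.183) and SCRIB (-0.65, SE 0.223) were called less securely. In edgeR's quasi-likelihood test PARD6G lost its call without replicate 1 at 1000 nM (adjusted p = 0.321) or replicate 2 of chip 1 (0.0805). Its call was also lost without the 3 libraries that stood apart (0.295). PARD6B lost its call without replicates 2 (0.0781) or 3 (0.161) at 1000 nM or replicate 1 of chip 2 (0.328). Its call was also lost with at least 1 CPM in 3 libraries (0.0538), with no filter (0.0855) and with only the libraries compared (0.0722). SCRIB lost its call without replicate 1 at 1000 nM (adjusted p = 0.133) or replicate 1 of chip 2 (0.100). The same held without the 3 libraries that stood apart (0.140) and with only the libraries compared (0.0638). Of 7 gap junction genes 2 were called, beside 41.8% of all genes: GJA5 rose by 1.21 (SE 0.303) and GJA1, the connexin 43 gene, was called at -0.46 (SE 0.166), with a median of -0.42. GJA1 lost its call in edgeR's quasi-likelihood test without replicates 2 (adjusted p = 0.137) or 3 (0.206) at 1000 nM, replicates 2 (0.206) or 3 (0.0610) of chip 1 or replicate 1 of chip 2 (0.0524). Its call was also lost with only the libraries compared (0.0764 by the same test) and with DESeq2 (0.0589).

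**Figure D4:**
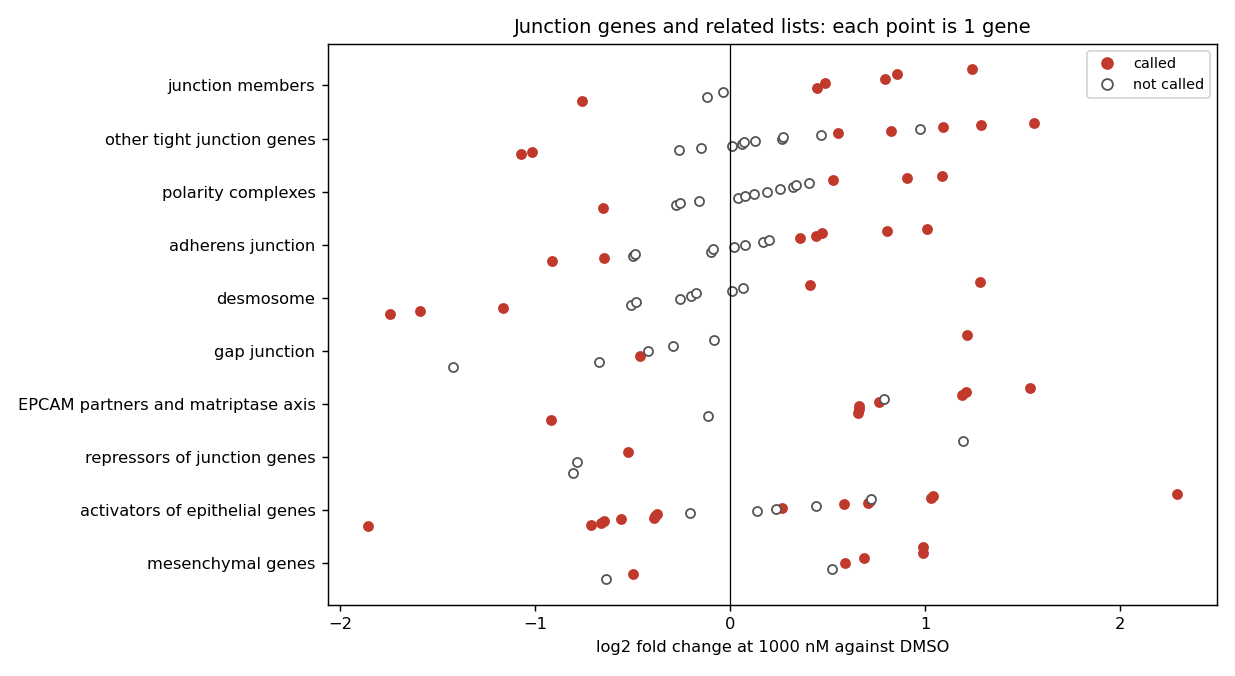
Log2 fold change at 1000 nM against DMSO (horizontal axis) for each tested gene (1 point per gene) of the junction genes and of related lists (rows), with called genes filled. The junction genes run from CLDN7 at -0.76 to CLDN3 at 1.24, and in each row drawn with 2 or more called genes both directions occur.

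Of 12 listed repressors of junction genes, 4 passed the filter on low counts. Of these 1 was called, beside 41.8% of all genes: TCF3, an E-box protein, at -0.53 (SE 0.149). In edgeR's quasi-likelihood test TCF3 lost its call without replicate 1 at 1000 nM (adjusted p = 0.0862) or replicate 1 of chip 2 (0.0551). The same held without the 3 libraries that stood apart (0.0809). SNAI1, the Snail gene, held 171 counts in DMSO and 51 at 1000 nM, or 8.13 ± 2.38 and 4.58 ± 0.485 CPM (SD, n = 3 each). Its change of -0.81 (SE 0.316) was not called (adjusted p = 0.0893) but was called without replicate 1 of chip 2 (0.0254) and against the mean of both DMSO groups (0.00965). ZEB1 stood at -0.78 (SE 0.610), from 36 counts in DMSO and 11 at 1000 nM, and was not called. SNAI2 held 5 counts in DMSO and 17 at 1000 nM, and ZEB2 and TWIST1 held 0 counts at both. At these counts changes of ZEB1, ZEB2, SNAI2 and TWIST1 were not detectable or not tested.

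Of 20 tested activators of epithelial genes, 7 rose and 8 fell, beside 21.2% and 20.7% of all genes, with a median of 0.19. CDX2, the intestinal homeobox factor, changed by 1.04 (SE 0.095), and the ETS factors ELF3 and EHF by 1.03 (SE 0.163) and 0.72 (SE 0.098). FOXA2 (-1.85, SE 0.317) and HNF4A (-0.65, SE 0.117), which are factors of gut and liver epithelium, fell. Of 7 tested mesenchymal genes 4 rose and 1 fell, beside the same 21.2% and 20.7%, with a median of 0.59. VIM (0.99, SE 0.150), TAGLN (0.99, SE 0.158) and ACTA2 (0.59, SE 0.149) rose beside CDH1, and CDH2, the N-cadherin gene, held 0 counts in DMSO and 2 at 1000 nM. S100A4 changed by -0.50 (SE 0.158) and lost its call in edgeR's quasi-likelihood test without replicate 1 at 1000 nM (adjusted p = 0.226). The same held without the 3 libraries that stood apart (0.164).

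Markers of cell types were read beside these changes. Colon epithelial markers were present, with a sum over 9 genes of 3486 to 3684 CPM in DMSO and 3808 to 4194 CPM at 1000 nM. That sum hides opposite changes, as 4 of the 9 were called higher and 3 lower at 1000 nM, beside 21.2% and 20.7% of all genes. KRT19 had means of 660 CPM in DMSO and 1505 CPM at 1000 nM, and KRT8 had 1520 and 1117 CPM. The sum of 9 fibroblast markers was 3.28 to 4.51 CPM in DMSO and 41.0 to 42.4 CPM at 1000 nM. Within that list the collagen genes COL1A1 and COL3A1 had means of 1.95 and 1.24 CPM in DMSO and 12.9 and 16.8 CPM at 1000 nM, and LUM 0.632 and 10.9 CPM, while COL1A2 and FAP held 0 counts in all 36 libraries. The sum of 7 endothelial markers was 4.43 to 8.16 CPM in DMSO and 4.10 to 4.50 CPM at 1000 nM, with KDR and CLDN5 at 0 in all libraries. The sum of 7 blood cell markers went from 16.5 to 23.5 CPM in DMSO to 77.8 to 95.8 CPM at 1000 nM, mainly through LYZ, with CD3E at 0 in all libraries. What part these marker changes have in the junction gene changes was not tested.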

How the data were processed

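The authors deposited raw whole-number counts for each gene, with no scaling, from Ion AmpliSeq libraries made from 10 ng of total RNA, per the labels' protocols, and pooled 18 to a pool. Per the submitters' processing notes, hg19 was the build. Which aligner and counter were used is not given in the sources used here. All 36 single files equal the deposited matrix. Of 20812 rows, 10 are spike-in controls with 0 counts and were left out. The amplicon design was not used here, so reads shared with near-identical genes could not be checked. Counts are not corrected for repeated amplification.

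Total counts had a median of 3952427 per library. Genes were filtered with filterByExpr (12102 kept), scaled by TMM and fitted with edgeR 4.0.16 in R 4.3.3 as 12 groups with robust quasi-likelihood dispersion (24 residual degrees of freedom). The larger of the p-values against DMSO chip 1 and chip 2 was adjusted (Benjamini-Hochberg, across the 12102 genes); a call needed a value under 0.05 and the same sign against both. Standard errors are the larger of both. Log2 CPM used a prior count of 1. The procedure was tested on simulated counts. Figures and curves used Python 3.11.15, scipy 1.17.1 and matplotlib 3.10.9; alternatives used DESeq2 1.42.0 and limma 3.58.1.

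The 9 genes, the lists and the rules were chosen with earlier results of these data known. From each list the text names up to 3 genes called higher and 3 called lower at 1000 nM by adjusted p, and for each member the 2 genes with the most similar 12 group means; CDH2, VIM, SNAI1, SNAI2, ZEB1, ZEB2, TWIST1 and DUSP6 were always taken. A few results that this rule takes are not reported here. DMSO libraries with the same number on the pair of chips shared deviations (r from 0.25 to 0.39 over 3 pairs), so DMSO means and SDs are over 3 pair means. They differed by more than sampling noise (chi-square per degree of freedom 1.53 to 1.58). DMSO and same-numbered treated libraries did not deviate together (r from -0.19 to 0.21 over 60 pairs), so no pairing was used. Over all 195 pairs other than those of the DMSO chips, r ran from -0.57 to 0.73, with a median of -0.02. The highest was that of replicate 3 at 30 nM with replicate 3 at 1000 nM, so some treated libraries shared deviations. Promoter windows and neighbouring genes come from RefSeq tables on GRCh38.p14, and no coordinates were taken from the deposited files.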

Additional observations from a re-analysis of the deposited data

Results flagged for a closer look

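Among the 6 DMSO libraries, EPCAM in replicate 1 of chip 2 held 479.8 CPM, with the other 5 between 511 and 527.5 CPM. Its gap to the nearest library was 0.658 of the group's range, beyond Dixon's 95% critical value for 6 libraries. All 8 tested junction genes were examined in this way and 1 stood out; chance alone marks about 1 group in 20. EPCAM was not called at any dose with or without that library.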

How the results depend on the processing

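Counts of called genes were recomputed with RLE scaling, DESeq2, limma voom, other filters on low counts, other uses of the DMSO libraries, only the libraries compared, a replicate block, without the 3 libraries that stood apart, and without each replicate in turn. Of these values 462 stayed within 1.5 times the main count and 28 did not. The 462 include counts of 0 that stayed 0, as at 0.03, 0.1 and 0.3 nM, where 0% of all genes were called. They also include 3 becoming 2, as at 3 nM, where CLDN1 kept its call in 8 of 21 alternatives. The tally is therefore a loose measure of stability. At 1 nM the 2 called junction genes became 1 with only the libraries compared, 1 without the 3 libraries that stood apart and 0 to 2 without single replicates. From 10 to 100 nM the count of 0 became 1 with no filter, 2 with only the libraries compared, 1 without the 3 libraries and 0 to 1 without single replicates. At 1000 nM the 2 gap junction genes became 1 with DESeq2 and 1 to 2 without single replicates. The 4 polarity genes became 7 with DMSO summed over chips, 7 with 1 test against the DMSO mean, 2 with only the libraries compared and 2 to 5 without single replicates. The 1 repressor became 3 against DMSO chip 1 alone, 3 with DMSO summed, 3 against the mean, 0 without the 3 libraries and 0 to 1 without single replicates. The log2 fold change of CLDN1 at 1000 nM, -0.12 and not called, ran from -0.29 to 0.027 without single replicates, and was above 0 only without replicate 3 of that dose. With the replicate number as a block the junction genes called were 2 at 1 nM, 2 at 3 nM (3 without it), 4 at 10 nM and 6 at 1000 nM; CLDN1 at 3 nM lost its call, and no other junction gene changed its call. Where fewer libraries are used, fewer degrees of freedom remain; otherwise the cause was not tested. The alternatives for CLDN3 at 3 nM and for the most similar genes were chosen after seeing the data. Counts limit CLDN2, SNAI2, ZEB1, ZEB2, TWIST1 and CDH2.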
